A study of Sus scrofa with 28 samples.

Results

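ANGPTL4, ANGPTL7, APOB and ACOX2 were the genes of lipid handling and the angiopoietin-like genes on a qPCR panel run on kidney tissue. They were chosen by name, with earlier results of these data known, and made up 4 of the 73 kidney genes of the panel. All 4 varied widely between animals that had been treated alike, and none differed between the groups beyond that spread in the tests adjusted over the panel. For the 2 genes detected latest, ANGPTL7 and ACOX2, some animals were read beyond cycle 20.

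The animals were 28 adult Göttingen Minipigs, all castrated males. Animals of the SD group (n = 7) ate a standard diet, those of the FFC group (n = 13) a diet rich in fat, fructose and cholesterol, and those of the FFC-DIA group (n = 8) ate the FFC diet and were also made diabetic. The study's methods give streptozotocin, which destroys pancreatic beta cells, as the inducing agent and daily insulin as the treatment, so that FFC-DIA is a model of insulin-dependent diabetes on top of the diet. No group was diabetic on the standard diet, so that FFC-DIA vs. SD holds diet and diabetes together. By the study's methods the FFC animals also began on a version of the diet with more cholesterol than the FFC-DIA animals received, so that FFC-DIA vs. FFC differs in early dietary cholesterol as well as in diabetes. The study was run in staggered cohorts, which the sample labels do not give, and its cohorts were not tested.

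Fat is carried in blood inside lipoproteins, and tissues take it up after lipoprotein lipase has cut the triglycerides at the vessel wall. ANGPTL4 is a secreted inhibitor of lipoprotein lipase whose gene responds to fatty acids, fasting and low oxygen. ANGPTL7 is another secreted protein of the angiopoietin-like family, best known from the eye. APOB is the structural protein of the lipoproteins that liver and intestine release, and ACOX2 is a peroxisomal oxidase that shortens branched-chain fatty acids and the side chain of bile acid intermediates. The kidney cortex, rich in proximal tubules, burns fatty acids for much of its energy.

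Each assay was defined by a primer pair, and since all values below are cycles at which these pairs crossed a threshold, the study's pairs are shown, each 5′ to 3′ and in lower case.
ANGPTL4 forward: cttgggatcaggaccacgac
ANGPTL4 reverse: actggccattgaggttggag
ANGPTL7 forward: tcatgcaggtgatggagctg
ANGPTL7 reverse: gggacgagcagtcgtagatg
APOB forward: tgtccaagtacgagctcagg
APOB reverse: gcaggagggcagaaatgatg
ACOX2 forward: tgggctcagaagtcaccaac
ACOX2 reverse: ggcagattgctgtggtttcag
The primers were 20 or 21 bases long with a GC content of 52.4% to 60%. In the RefSeq annotation of the pig (Sscrofa11.1) all 4 names occur as gene symbols. The deposited values name no genome build, and no coordinates are given.

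The deposited value was the quantification cycle (Cq), where a later cycle means less transcript. Each cycle was taken as a factor of 2. The study's methods correct for PCR efficiency, and no such correction was made here, so that fold values are approximate. To obtain a log2 relative quantity, the level of a gene, its Cq was subtracted from the mean of the reference genes ACTB, TBP1 and RPL4 in that animal. A second scale set each gene against the mean of the 73 kidney genes in the same animal, here called the panel mean, and does not use the reference genes. Neither scale allows amounts of different genes to be compared, since primer pairs differ in efficiency. In whole tissue, fewer cells of a type and less RNA per cell cannot be told apart. Nothing in the labels says more of the replicates than that each sample is a separate animal of its group.

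Values were held for every animal and assay. The reference gene RPL4 came 1.44 ± 0.47 (SE) cycles later in FFC than in SD (9.30 vs. 7.86, two-sided exact permutation p = 0.0139) and 1.19 ± 0.51 cycles earlier in FFC-DIA than in FFC (exact permutation p = 0.0374). TBP1, another of the 3, came 0.69 ± 0.23 cycles earlier in FFC-DIA than in FFC (exact permutation p = 0.0156). The median difference of all 73 genes on the reference scale was 0.55 (log2) in FFC vs. SD, 0.21 in FFC-DIA vs. SD and -0.33 in FFC-DIA vs. FFC. On the panel scale these medians were 0.03, -0.02 and -0.05. The 13 markers of podocytes, tubules, endothelium, macrophages, T cells and mesangial or smooth muscle cells were read in every animal, with mean Cq values between 8.21 and 18.1. On the reference scale 3 of these markers were higher in FFC vs. SD, where 19.2% of all 73 genes passed the test, and 1 was lower in FFC-DIA vs. FFC (5.48% of all genes). Relative to the panel mean the calls differed: 1 marker was lower in FFC vs. SD (1.37% of all genes passed), 1 was lower in FFC-DIA vs. SD (4.11%) and 1 was higher in FFC-DIA vs. FFC (8.22%). Their part in the values of the 4 genes was not tested.

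The spread between animals of the same group was the main feature of these genes. Pooled over the 3 groups, the SD of the log2 relative quantity was 1.95 for APOB, the 3rd largest of the 73 genes. It was 1.69 for ACOX2 (4th), 1.65 for ANGPTL4 (5th) and 1.44 for ANGPTL7 (7th), against a median of 0.66 over the panel. COL4A2 (2.81) and IGF1 (2.76) were the only genes with a larger spread than APOB. On the panel scale the 4 genes kept these ranks, with an SD of 1.91, 1.66, 1.48 and 1.44 and a panel median of 0.50. The ranks are a description and were not tested, and the 4 genes were chosen with earlier results of these data known.

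Late detection went with part of this spread. Across the 73 genes the mean Cq and the pooled SD had a Pearson r of 0.46 and a Spearman rho of 0.55, where genes measured in the same animals are not independent replicates. ANGPTL7 had the 2nd latest mean Cq (19.5), after GREM1 (19.8), and ACOX2 the 4th latest (18.1). APOB was 15th (15.6). ANGPTL4 was detected early, with a mean Cq of 10.3 that put it 55th, and yet it had one of the widest spreads. In the other direction AGER, with the 3rd latest mean Cq (18.9), had a pooled SD of 0.35, among the smallest of the panel, and of 0.61 (26th) relative to the panel mean. Besides ANGPTL7 and ACOX2, 4 genes had a mean Cq later than 18, and all 4 had a smaller spread than these on the reference scale.

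**Figure D1:**
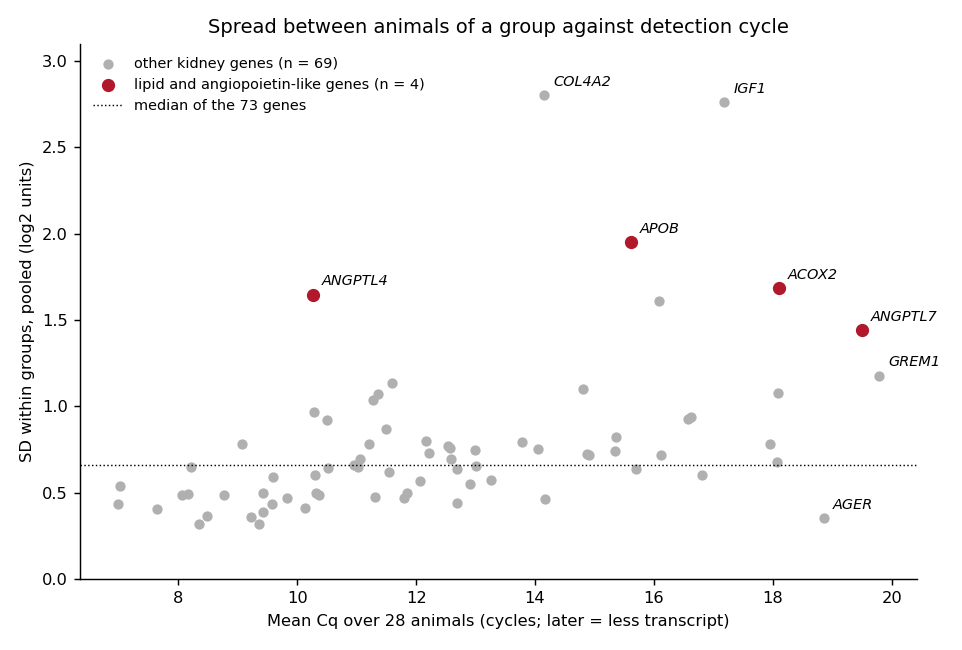
Pooled within-group SD of the log2 relative quantity (log2 units) against the mean Cq over 28 animals (cycles) for each of the 73 kidney genes. Red points are the 4 genes described here and the dotted line is the panel median of 0.66. APOB, ACOX2, ANGPTL4 and ANGPTL7 lie between 1.44 and 1.95, with ANGPTL4 at an early mean Cq of 10.3.

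ANGPTL4 ranged from -4.46 to -0.77 in SD, with a median of -2.47. In FFC it ranged from -4.24 to 1.02 (median -1.26), and in FFC-DIA from -5.66 to 0.21 (median -1.13). The 3 ranges overlapped, although 5 of 13 FFC and 4 of 8 FFC-DIA animals lay above every SD animal (3 of 13 and 1 of 8 on the panel scale), and within a group the highest animal exceeded the lowest 12.9-fold for SD, 38.3-fold for FFC and 58.5-fold for FFC-DIA. The lowest 5 of all 28 animals were SD 1 (-4.46), FFC 5 (-3.93), FFC 12 (-4.24), FFC-DIA 2 (-3.84) and FFC-DIA 4 (-5.66), with a gap of 1.00 to the next animal of any group. The same 5 animals were lowest on the panel scale, between -1.28 and 0.30, with the others at 1.08 or above.

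Group means of ANGPTL4 were -2.20 ± 1.29 (SD, n = 7) for the standard diet, -1.22 ± 1.53 (n = 13) for FFC and -1.86 ± 2.06 (n = 8) for FFC-DIA. The difference for FFC vs. SD was 0.98 ± 0.65 (SE; 95% interval -0.46 to 2.41) with an exact permutation p of 0.169 and an adjusted p of 0.251. It was less than that, 0.46, on the panel scale. Diabetic animals differed from SD by 0.34 ± 0.88 (-1.65 to 2.27; adjusted exact permutation p = 0.913) and from FFC by -0.64 ± 0.84 (-2.29 to 0.99; adjusted exact permutation p = 0.584). All 3 intervals reach beyond 1 log2 unit, so that equal levels were not shown. Single animals moved these values: without SD 1, FFC vs. SD was 0.60 and FFC-DIA vs. SD was -0.04, and without FFC-DIA 4, FFC-DIA vs. SD was 0.88 and FFC-DIA vs. FFC was -0.10.

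ANGPTL4 is known to be induced by low oxygen, and 4 other genes linked to that response are described beside it: HIF1A, VEGFA, SLC2A1 and END1, named as deposited. Their RNA was not taken as a measure of oxygen. None of these 4 was higher in any comparison by the test adjusted over the panel. VEGFA, a vessel growth factor, was lower in FFC vs. SD (-0.66 ± 0.20, adjusted exact permutation p = 0.0448), and on the panel scale it was -1.18 ± 0.38 with an adjusted exact permutation p of 0.117. SLC2A1, the glucose transporter GLUT1, was lower in FFC-DIA vs. FFC (-0.99 ± 0.23, adjusted exact permutation p = 0.0105). Their median difference was 0.29 in FFC vs. SD, -0.17 in FFC-DIA vs. SD and -0.26 in FFC-DIA vs. FFC, beside the all-gene medians of 0.55, 0.21 and -0.33. Relative to the panel mean it was -0.22, -0.40 and 0.02, so that its sign turned in FFC vs. SD and FFC-DIA vs. FFC.

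ANGPTL7 was the gene read latest of the 4, with Cq values from 17.0 to 24.6. In SD its log2 relative quantity ranged from -14.80 to -9.28 (median -11.64), in FFC from -12.10 to -8.88 (median -10.57) and in FFC-DIA from -13.40 to -9.09 (median -11.11). The spread was widest in SD, with an SD of 2.20 against 1.02 in FFC. SD 1 (-14.80) and SD 3 (-14.41) lay below every animal of both other groups, whereas SD 2 (-9.28) and SD 5 (-9.38) lay among the highest animals of FFC. Cq was later than 20 in 4 of 7 animals in SD, 1 of 13 in FFC and 1 of 8 in FFC-DIA. SD 1 was also the animal of its group with the latest panel mean Cq (14.3) and the latest Cq of ACTB, TBP1 and RPL4, and on the panel scale its ANGPTL7 was again the lowest (-10.32).

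The mean of ANGPTL7 was -11.70 ± 2.20 for SD, -10.29 ± 1.02 for FFC and -11.13 ± 1.21 for FFC-DIA. FFC vs. SD was 1.40 ± 0.88 (95% interval -0.07 to 2.90), which missed the threshold before adjustment (exact permutation p = 0.0620) and after it (adjusted p = 0.151). This difference moved with the handling of late readings and with single animals. Cycle 20 was a bound chosen here, not one given by the study, and more SD than FFC readings of ANGPTL7 lay above it. Setting those readings to 20 therefore raised mostly the SD mean, whether or not they were valid. The FFC vs. SD difference was 0.51 with Cq values above 20 set to 20, 0.89 on the panel scale and 0.89 without SD 1. In the other direction it was 1.81 without SD 2 (exact permutation p = 0.0192), 1.79 without SD 5 (0.0212), 1.56 without FFC 3 (0.0398) and 1.52 without FFC 4 (0.0474), all unadjusted, and the adjusted p without a single animal was 0.0675 or above. With RPL4 as the sole reference gene it was 2.22 and passed the adjusted exact permutation test (adjusted p = 0.0336), in a setting in which 53 of the 73 genes did. Of the 13 FFC animals 11 exceeded the mean of SD. In FFC-DIA vs. SD the difference was 0.56 ± 0.94 (-1.38 to 2.53; adjusted exact permutation p = 0.893) and turned to -0.06 with late Cq values set to 20, while it was 0.05 without SD 1 and 0.97 without SD 2. FFC-DIA vs. FFC was -0.84 ± 0.51 (-1.87 to 0.19; adjusted exact permutation p = 0.320), and 1 of 8 diabetic animals lay above the FFC mean (3 of 8 on the panel scale). It was -0.52 without FFC-DIA 6 and -1.13 without FFC-DIA 8 (unadjusted exact permutation p = 0.0262, adjusted p = 0.141).

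**Figure D2:**
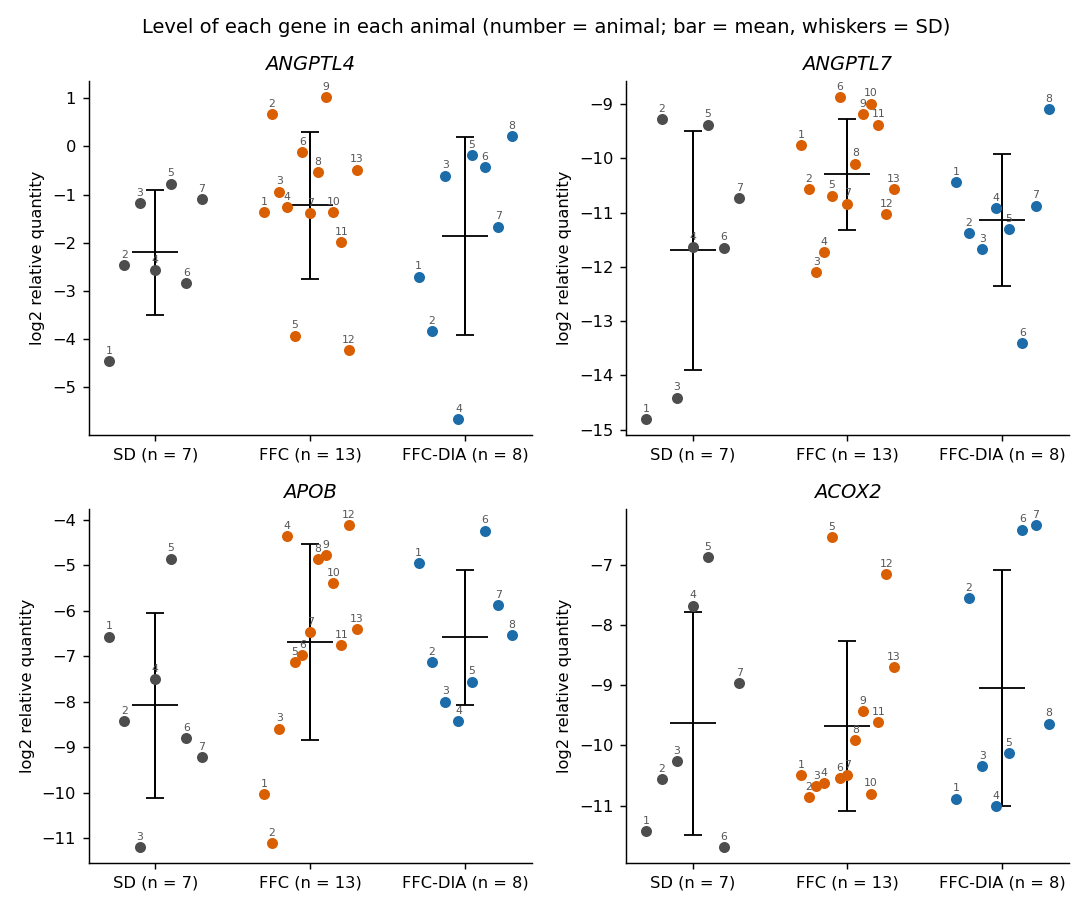
Log2 relative quantity to ACTB, TBP1 and RPL4 of each gene in each animal, by group, with the number of the animal above each point, the group mean as a bar and the SD as whiskers. The groups overlap for every gene, and SD 1 and SD 3 are the lowest animals for ANGPTL7 at -14.80 and -14.41.

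APOB had the largest pooled SD of the 4 genes, although ANGPTL7 was more spread in the SD group and ANGPTL4 and ACOX2 in FFC-DIA. In SD it ranged from -11.19 to -4.85 (median -8.43), in FFC from -11.10 to -4.11 (median -6.47) and in FFC-DIA from -8.42 to -4.24 (median -6.83). The highest animal exceeded the lowest 80.9-fold for SD, 127-fold for FFC and 18.2-fold for FFC-DIA. The lowest animals were SD 3 in one group and FFC 2 (-11.10) and FFC 1 (-10.03) in another, and no diabetic animal was that low. Only FFC 2 was read later than cycle 20.

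The mean of APOB was -8.08 ± 2.03 for SD, -6.69 ± 2.15 for FFC and -6.58 ± 1.48 for FFC-DIA. Both groups on the FFC diet thus had higher means than SD, by 1.39 ± 0.97 in FFC (95% interval -0.70 to 3.47; exact permutation p = 0.176, adjusted p = 0.251) and by 1.49 ± 0.93 in FFC-DIA (-0.48 to 3.45; exact permutation p = 0.124, adjusted p = 0.647). These comparisons share the SD animals. These values were 0.87 and 1.26 on the panel scale. In FFC 10 of 13 animals and in FFC-DIA 7 of 8 lay above the SD mean, on the reference scale. SD 5, the highest SD animal, and SD 3, the lowest, moved both values: FFC vs. SD was 1.93 without SD 5 and 0.87 without SD 3, and FFC-DIA vs. SD was 2.03 and 0.98. Without SD 5, FFC-DIA vs. SD had an unadjusted exact permutation p of 0.0290. Its adjusted p without a single animal was 0.302 or above. FFC-DIA vs. FFC was 0.10 ± 0.79 (-1.70 to 1.93; adjusted exact permutation p = 0.919), and its sign turned without FFC 2 (-0.26) and with RPL4 alone (-0.43).

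The ACOX2 values are described as an upper and a lower band, divided at the widest gap in these same values. Animals of each group lay in both. The gap fell short of the 2 log2 units planned for clusters of animals, so the bands are a description and were not tested. On the reference scale it ranged from -11.68 to -6.87 in SD (median -10.26), from -10.86 to -6.55 in FFC (median -10.49) and from -11.01 to -6.34 in FFC-DIA (median -9.88). On the panel scale the widest gap with at least 4 animals on each side was 1.47, between -5.88 and -4.41. Above it lay 9 animals, 3 of each group: SD 4, SD 5, SD 7, FFC 5, FFC 12, FFC 13, FFC-DIA 2, FFC-DIA 6 and FFC-DIA 7. The other 19 animals lay below it. On the reference scale the gap was 1.02 and 7 animals lay above it, without SD 7 and FFC 13. Cq was later than 20 in 2 animals of SD, 2 of FFC and none of FFC-DIA.

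The mean of ACOX2 was -9.63 ± 1.85 for SD, -9.68 ± 1.41 for FFC and -9.04 ± 1.96 for FFC-DIA. FFC vs. SD was -0.05 ± 0.80 (95% interval -1.59 to 1.50; adjusted exact permutation p = 0.949), the largest p of the 73 genes. Its direction was not settled by the scale, with -0.56 on the panel scale and 0.77 with RPL4 alone. FFC-DIA vs. SD was 0.59 ± 0.98 (-1.56 to 2.76; adjusted exact permutation p = 0.893) and FFC-DIA vs. FFC was 0.64 ± 0.80 (-0.91 to 2.18; adjusted exact permutation p = 0.577). Leaving out single animals moved these values to between 0.21 (without FFC-DIA 7) and 1.05 (without SD 5) in FFC-DIA vs. SD, and to between 0.25 (without FFC-DIA 7) and 0.92 (without FFC-DIA 4) in FFC-DIA vs. FFC. The FFC-DIA group held 3 animals of the upper band among 8 and the FFC group 3 among 13.

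**Figure D3:**
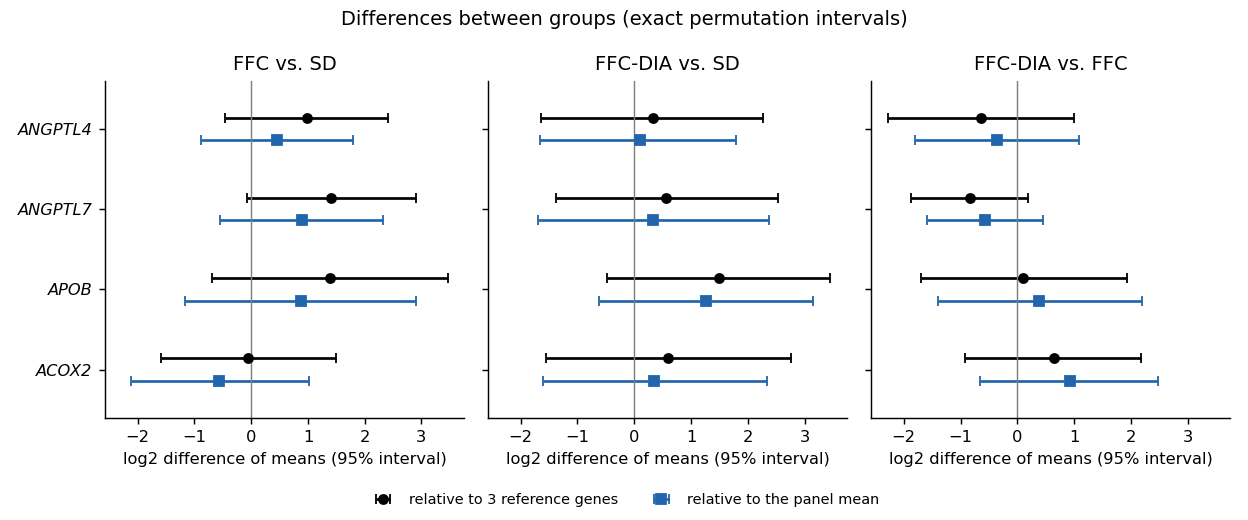
Log2 difference of group means for each gene in the 3 comparisons, with 95% intervals from the exact permutation test. Black circles are relative to the 3 reference genes and blue squares to the panel mean. Every interval includes 0, and the one nearest to excluding it is ANGPTL7 in FFC vs. SD on the reference scale, from -0.07 to 2.90.

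Across the 3 comparisons none of the 4 genes passed the exact permutation test after Benjamini-Hochberg adjustment over the panel. The shares of all kidney genes that passed were 19.2% in FFC vs. SD, 2.74% in FFC-DIA vs. SD and 5.48% in FFC-DIA vs. FFC. The share in FFC vs. SD was not stable: none of the 73 genes passed there with ACTB and TBP1 as references, with all 4 reference genes, or after any one of 8 animals was left out. The setting with all 4 reference genes adds GAPDH, read at a Cq of 20.6 in SD 6 and 9.26 in the next SD animal. None of the 4 genes described here passed on the panel scale either, beside shares of 1.37%, 4.11% and 8.22%. None of the 4 had an unadjusted p under 0.05 on either scale, while 27, 8 and 16 of the 73 genes did on the reference scale and 11, 11 and 13 on the panel scale. By limma's moderated statistics none passed after adjustment, and ANGPTL7 in FFC vs. SD had an unadjusted p of 0.0367 (adjusted p = 0.107). With Bonferroni adjustment, the 3-group permutation test called 5.48% of the genes and none of the 4, with unadjusted permutation p of 0.117 for ANGPTL7, 0.261 for APOB, 0.423 for ANGPTL4 and 0.679 for ACOX2. Relative to the panel mean that test called 2.74% of the genes and none of the 4.

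The median difference of the 4 genes was 1.18 in FFC vs. SD beside 0.55 over all 73 genes, with 3 of 4 genes and 65 of 73 genes at a value above 0. In FFC-DIA vs. SD it was 0.58 beside 0.21, with 4 of 4 and 54 of 73 genes above 0. In FFC-DIA vs. FFC it was -0.27 beside -0.33, with 2 of 4 and 13 of 73 genes above 0. Against the panel mean the medians of the 4 genes were 0.67, 0.34 and 0.01.

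The choice of reference moved all 4 genes in FFC vs. SD by the same amount, since it adds 1 constant to every gene. ANGPTL4 was 0.57 with ACTB and TBP1 and 1.79 with RPL4 alone. APOB was 0.98 and 2.21 under these choices, and ANGPTL7 was 1.00 and 2.22. ACOX2 was -0.46 with ACTB and TBP1.

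**Figure D4:**
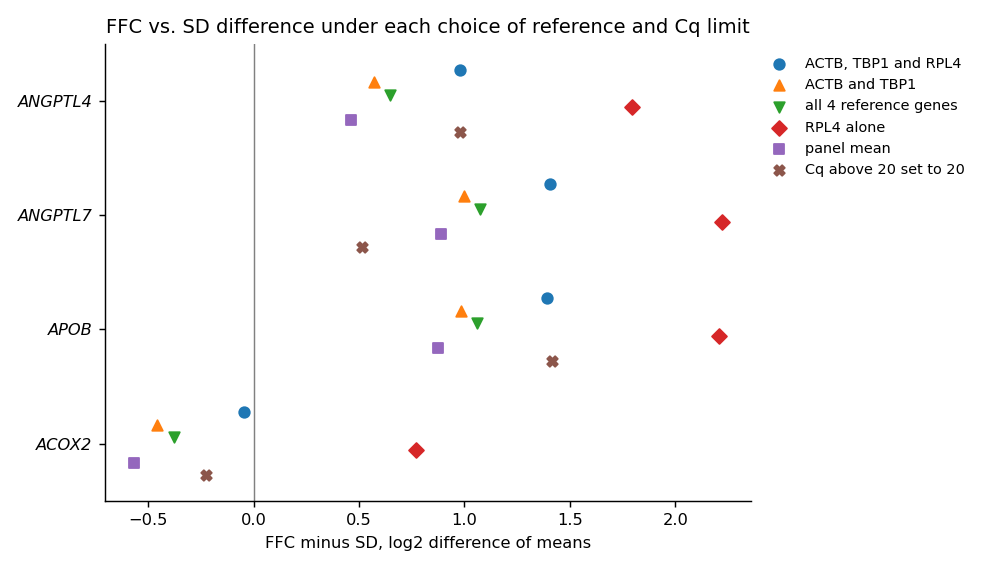
FFC minus SD log2 difference of means of each gene, one symbol for each choice of reference genes or Cq limit. RPL4 alone gives the highest value for every gene, from 0.77 for ACOX2 to 2.22 for ANGPTL7, and setting Cq values above 20 to 20 lowers ANGPTL7 to 0.51.

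The 4 genes did not share one order of animals. On the reference scale SD 5 was the animal of its group with the highest ANGPTL4, APOB and ACOX2 and the 2nd highest ANGPTL7, and on the panel scale it was 3rd for ANGPTL4 with the other places the same. SD 1 had the lowest ANGPTL4 and ANGPTL7 of its group and the 2nd highest APOB. FFC 5, FFC 12 and FFC-DIA 2 lay among the 5 low animals for ANGPTL4 and in the upper band for ACOX2, whereas the other 2 low animals, SD 1 and FFC-DIA 4, were in the lower band. FFC 12 also had the highest APOB of its group. These animals were picked out after their values were seen.

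Over the 28 animals, with group means subtracted on the panel scale, APOB and ACOX2 had a Pearson r of 0.37 (permutation p = 0.0559) and a Spearman rho of 0.35 (permutation p = 0.0740). Without FFC 1 and FFC 2, the animals farthest from the APOB median, r was 0.32. ANGPTL4 had an r of -0.21 with APOB (permutation p = 0.299), -0.18 with ACOX2 (permutation p = 0.382, rho = -0.04) and 0.11 with ANGPTL7 (permutation p = 0.580). The value for ANGPTL4 and ACOX2 turned to 0.14 without FFC 5 and FFC 12, the animals farthest from the ACOX2 median, and was -0.19 without FFC 12 and FFC-DIA 4, those farthest from the ANGPTL4 median. ANGPTL7 had an r of 0.08 with APOB and 0.02 with ACOX2. Their adjusted p were 0.847 or above, over 282 pairs of one of the 4 genes with another kidney gene.

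**Figure D5:**
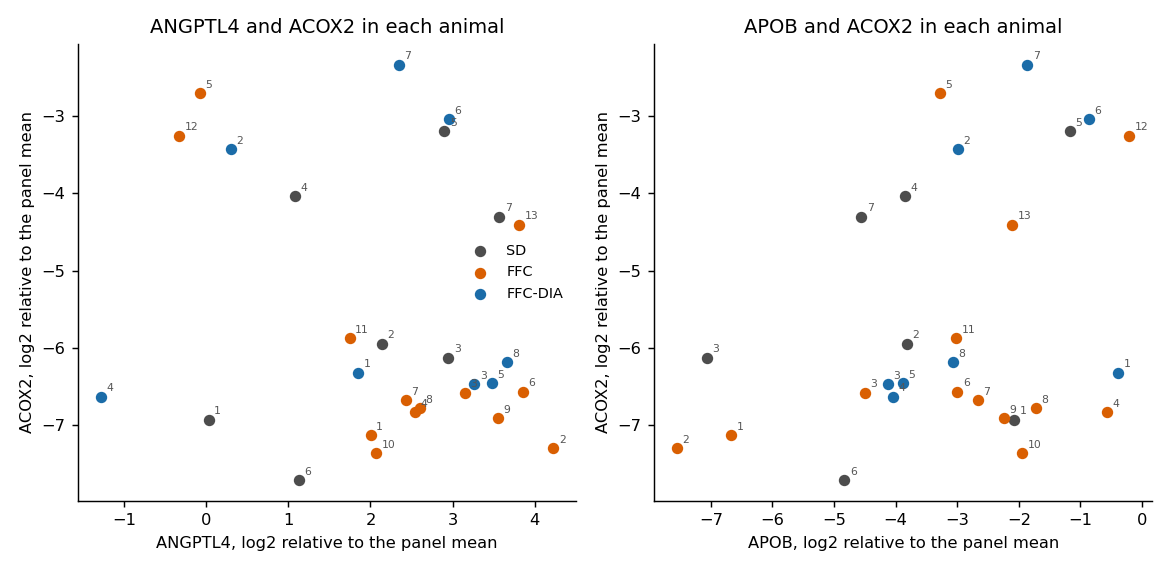
ANGPTL4 against ACOX2 (left) and APOB against ACOX2 (right) in each of the 28 animals, both log2 relative to the panel mean, with colours for the groups and the number of each animal. An empty stretch between -5.88 and -4.41 divides ACOX2 into 9 animals above and 19 below, with 3 animals of each group above.

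The genes most like ANGPTL4 over the animals, by the highest positive r, were ITGA3, an integrin subunit of epithelial cells (r = 0.39, rho = 0.35, permutation p = 0.0487 and 0.0778), CDKN1A, the cell cycle inhibitor p21 (r = 0.28), and NOS3, the nitric oxide synthase of endothelium (r = 0.25). For ANGPTL7 they included WT1, a podocyte transcription factor (r = 0.33) and VEGFB (r = 0.24). The latter rested on FFC-DIA 6 and SD 2, without which r was 0.01. For APOB they were AGTR2, an angiotensin II receptor (r = 0.39, rho = 0.41, permutation p = 0.0491 and 0.0377; r = 0.40 without FFC 1 and FFC 2), ACOX2 and VIM1 (r = 0.34). For ACOX2 they were APOB, VIM1 (r = 0.33) and CD68, a macrophage marker (r = 0.33). None of the 282 pairs passed adjustment, with a smallest adjusted permutation p of 0.454 for r, among negative pairs, and 0.540 for rho. At an unadjusted p under 0.05 there were 16 pairs for r, of which 14 were negative, and 11 for rho. Chance alone places about 1 in 20 of the 282 pairs under this threshold. The strongest by r were negative, ANGPTL4 with CD8A, a T cell marker (r = -0.52, permutation p = 0.00507; -0.37 without 2 animals), APOB with NOS2 (r = -0.51, permutation p = 0.00633) and ACOX2 with CDH5, an endothelial cadherin (r = -0.51, permutation p = 0.00708), each with an adjusted p of 0.454 and named after their values were seen. By rho other pairs ranked first, and ACOX2 with CDH5 had a permutation p of 0.0562. All pairs share the panel mean that was subtracted.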

How the data were processed

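By the study's methods, the authors took total RNA from left kidney cortex, made and pre-amplified cDNA, ran EvaGreen qPCR on a microfluidic chip and curated melting curves. They deposited Cq values of 77 assays (73 kidney and 4 reference genes) in 28 animals, in cycles and not normalized. Their deposited table of fold changes was not used. Groups came from the sample labels. Some genes are not reported here but stayed in all counts.

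Log2 relative quantities were computed with a factor of 2 per cycle, without a filter on Cq or a correction for PCR efficiency. Groups were compared in pairs with two-sided exact permutation tests of the difference of means (77520, 6435 and 203490 divisions of the animals), Benjamini-Hochberg adjusted over 73 genes at 0.05. Intervals hold the differences that this test did not reject. The 3-group F statistic and the likeness of genes used 100000 labellings (smallest p 1e-05), with Bonferroni and Benjamini-Hochberg adjustment. Genes named beside the 4 were the 3 most alike to each and a list of genes linked to low oxygen. The members and lists were chosen with earlier results of these data known. qPCR gives no read depth, and the number of animals and the Cq limit the precision. Scripts (Python 3.11.15, numpy 2.4.6, scipy 1.17.1, R 4.3.3, limma 3.58.1) were tested on simulated data.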

Additional observations from a re-analysis of the deposited data

Results flagged for a closer look

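No value of ANGPTL4, ANGPTL7, APOB or ACOX2 stood apart from its group by Dixon's test, on either scale, in the groups of 4 to 10 animals in which it was applied (SD and FFC-DIA). For the reference genes, 3 animals did. TBP1 was read at a Cq of 13.2 in SD 1, with the next SD animal at 11.6 (gap over range 0.642). GAPDH, which was not among the 3 reference genes of the main values, was read at 20.6 in SD 6, with the next SD animal at 9.26 (0.917), and at 11.2 in FFC-DIA 6, with the next animal of its group at 8.76 (0.564). Chance alone places about 1 in 20 groups past this limit, and 24 sets of animals were looked at.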

How the results depend on the processing

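Over all settings the differences of the 4 genes between groups were computed 356 times and passed the adjusted test once, for ANGPTL7 in FFC vs. SD with RPL4 alone (2.22). Signs turned for 4 values. ACOX2 in FFC vs. SD was 0.77 with RPL4 alone, 0.33 as a difference of mean ranks and -0.39 to 0.41 with single animals left out. ANGPTL4 in FFC-DIA vs. SD was -0.043 with all 4 reference genes and -0.038 to 0.88 with single animals left out. The setting with all 4 reference genes adds GAPDH, read at a Cq of 20.6 in SD 6 and 9.26 in the next SD animal. That reading enters the SD mean, and its part in the sign was not tested. ANGPTL7 in FFC-DIA vs. SD was -0.064 with Cq above 20 set to 20 and -0.11 as a difference of linear quantities. APOB in FFC-DIA vs. FFC was -0.43 with RPL4 alone, -0.78 in linear quantities, -0.81 in mean ranks and -0.26 to 0.37 with single animals left out. The cause was not tested. No 3-group test or likeness of the 4 genes changed its call. The pooled SD of ANGPTL4 was 2.03 with RPL4 alone and that of ANGPTL7 was 0.96 with Cq above 20 set to 20 (alternatives chosen after seeing the data).

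The count of kidney genes called, which serves as background here, was less stable. In FFC vs. SD it was 14 and became 0 with ACTB and TBP1, 0 with all 4 reference genes, 53 with RPL4 alone, 1 relative to the panel mean, 1 in linear quantities, 8 by ranks, 9 by limma and 0 to 24 with single animals left out (0 without any one of FFC 2, FFC 8, FFC 9, FFC 10, SD 1, SD 2, SD 3 or SD 7). In FFC-DIA vs. SD it was 2 and became 4 with ACTB and TBP1, 0 with all 4 reference genes and 1 with RPL4 alone. In FFC-DIA vs. FFC it was 4 and became 1 with RPL4 alone.

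With the replicate number as a block (replicate block), the counts were 0, 0 and 0, and FFC vs. SD was 1.01 for ANGPTL4, 1.05 for ANGPTL7, 0.27 for APOB and -0.40 for ACOX2. That fit holds only the 7, 7 and 8 pairs with shared numbers, leaving out 6 FFC animals in FFC vs. SD, and its smallest possible p was 0.0156, 0.0156 and 0.00781, so that its counts say little. The same animals unpaired (added after seeing the data) gave the same differences by construction and counts of 12, 2 and 3. The labels do not say that the numbers pair animals, and over the kidney genes the deviations of same-numbered animals had a mean r of -0.12 in FFC vs. SD, 0.07 in FFC-DIA vs. SD and -0.21 in FFC-DIA vs. FFC. The planned comparison with the deposited fold-change table was not run, since that table was not used.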
